A study of Homo sapiens with 9 samples.

Results

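The genes described here are 9 genes of laminin chains and other basement membrane proteins: LAMA3, LAMA5, LAMB1, LAMB2, LAMB3, LAMC1, HSPG2, AGRN and COL17A1. They were taken by symbol from a fixed list, out of 27902 genes in the tables, by a rule that uses no expression value. The list itself was drawn up with earlier results of these data known. FPKM, the number of sequenced fragments scaled for transcript length and library size, were summed over all RefSeq transcripts of a gene. All 9 reached the mean of 1 FPKM that was asked of a gene before it was tested, as did 12547 genes in all. COL17A1 passed narrowly, with a mean of 1.09 ± 0.0946 FPKM (SD, n = 3) in scramble libraries.

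RNA-seq was performed on 9 libraries of DU145, an established human prostate cancer cell line that lacks androgen receptor expression. The cells carried lentiviral hairpins: a scramble hairpin, shRNA FZD6 #1 or shRNA FZD6 #2, with 3 libraries each. The labels give every library the genotype WT, and separate the groups by hairpin alone. No cells without a hairpin were analysed here. The labels call each set a triplicate and do not say that they came from separate cultures, so p-values measure the spread between these libraries, which may be technical.

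FZD6, the Frizzled receptor that the hairpins target, was measured first. It was listed at 20.9, 20.5 and 20.04 FPKM in scramble libraries, at 9.47, 10.2 and 9.80 FPKM with shRNA FZD6 #1 and at 7.84, 8.79 and 7.69 FPKM with shRNA FZD6 #2. The knockdown libraries all lay below the scramble libraries (log2 fold change −1.12, SE 0.0848, adjusted p = 0.000468). A two-sided exact permutation test of 6 libraries against 3 gave p = 0.0238, the smallest it can give. Of 7 epithelial marker genes 6 were expressed, with a summed level of 1627 to 1816 FPKM. All 7 stromal and all 5 endothelial markers stayed under 1 FPKM in every library. The tables hold no counts, and the width of the Cufflinks bounds corresponds to an estimated 32.5 to 40.7 M fragments per library.

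Basement membranes are thin sheets of extracellular matrix on which epithelial cells sit. Laminins are their main cell-binding component. Each laminin is a cross-shaped or rod-shaped assembly of one alpha, one beta and one gamma chain, and the assembly is named by its chains. LAMA5 pairs with LAMB1 or LAMB2 and with LAMC1 in the laminins that most adult epithelia rest on, whereas LAMA3 and LAMB3 are chains of laminin-332, which anchors basal cells through hemidesmosomes. HSPG2 encodes perlecan and AGRN encodes agrin, large heparan sulfate proteoglycans that bind laminin. COL17A1 encodes a transmembrane collagen of the hemidesmosome. In the prostate, basal cells keep contact with the basement membrane, and invasive carcinoma commonly shows loss of laminin-332.

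In the 6 knockdown libraries, 6 of the 9 genes were lower than in scramble libraries: HSPG2, LAMA5, LAMB2, LAMB1, AGRN and LAMC1. The fall was largest for HSPG2, whose mean FPKM was 48.9% lower, and smallest for LAMC1, at 16.6% lower. These 6 comprise both proteoglycans, the alpha chain LAMA5, and the beta and gamma chains that can assemble with it. LAMA3, LAMB3 and the hemidesmosomal COL17A1 did not pass the test. Among all 12547 tested genes 7.2% were called lower and 13.5% higher, and none of the 9 was called higher. The median log2 fold change was −0.31 over the 9 genes and 0.03 over all tested genes. All 6 were called lower with shRNA FZD6 #1, where the share of all genes was 7.28%, and with shRNA FZD6 #2, where it was 11.5%. With shRNA FZD6 #2 none of the 9 was called higher, against 15.3% of all tested genes.

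**Figure D1:**
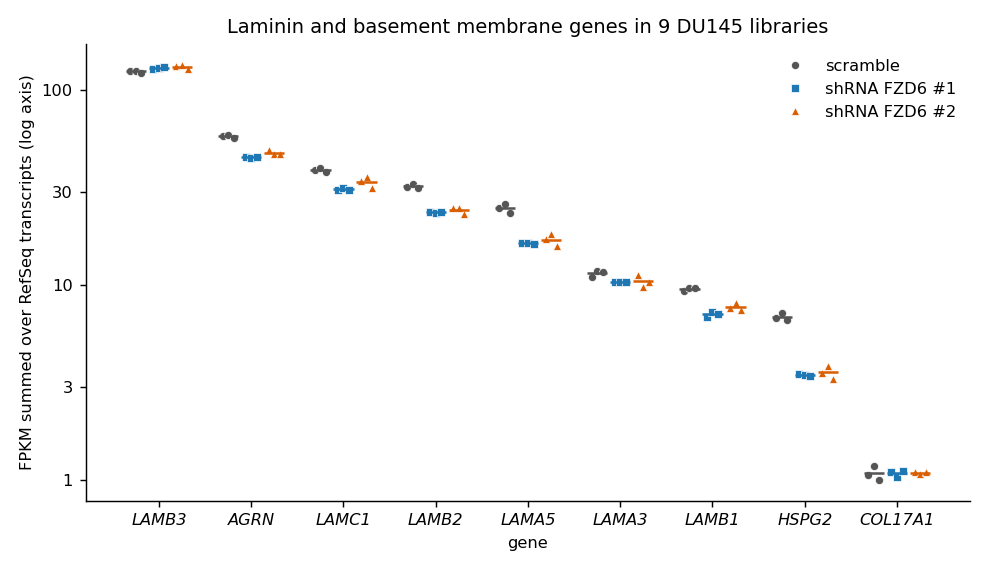
FPKM of the 9 genes (log axis) in each library, with 3 scramble, 3 shRNA FZD6 #1 and 3 shRNA FZD6 #2 points per gene and bars at the group means. In AGRN, LAMC1, LAMB2, LAMA5, LAMB1 and HSPG2 all knockdown points lie below all scramble points, whereas LAMB3 points lie slightly above, and those of LAMA3 and COL17A1 overlap.

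The levels, which are per length and can be compared between genes, covered a wide range. In scramble libraries LAMB3 was the most abundant at 124 ± 1.49 FPKM, above 94.4% of the tested genes, followed by AGRN at 57.8 ± 1.204, LAMC1 at 38.8 ± 1.07, LAMB2 at 32.0 ± 0.794 and LAMA5 at 24.8 ± 1.22 FPKM (SD, n = 3). LAMA3 at 11.5 ± 0.422, LAMB1 at 9.55 ± 0.153 and HSPG2 at 6.88 ± 0.280 FPKM were lower, and COL17A1 at 1.09 FPKM lay above only 2.55% of the tested genes. This order held in 9 of 9 libraries for each pair of neighbours, and within every group the ranges of neighbours did not overlap. It is an order of sums, and that of LAMA3 includes a non-coding transcript with a mean share of 39.2% in scramble libraries. With its coding transcripts alone LAMA3 lay below LAMB1 in every library, and in scramble replicate 3 also below HSPG2.

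The windows around the RefSeq starts, 250 bases before to 50 bases after, show how unlike these promoters are in base composition. RefSeq windows of build GRCh38.p14 were found for 8 of the 9 genes, 10 windows in all, and none was given for AGRN. The windows of the pair with the largest falls, HSPG2 and LAMA5, are printed beside those of LAMB3 and COL17A1, which were not called lower. They are written 5′ to 3′ on the gene's strand, and capitals mark the GC box letters (GGGCGG, the type of site bound by Sp factors) and the TATA box letters (TATAAA) on either strand, with overlapping matches joined. HSPG2 lies at chr1:21937261-21937560 (minus strand), LAMA5 at chr20:62367263-62367562 (minus strand), COL17A1 at chr10:104085831-104086130 (minus strand), and the printed one of 3 LAMB3 windows, at the start of its main transcript NM_000228, at chr1:209652376-209652675 (minus strand).
HSPG2: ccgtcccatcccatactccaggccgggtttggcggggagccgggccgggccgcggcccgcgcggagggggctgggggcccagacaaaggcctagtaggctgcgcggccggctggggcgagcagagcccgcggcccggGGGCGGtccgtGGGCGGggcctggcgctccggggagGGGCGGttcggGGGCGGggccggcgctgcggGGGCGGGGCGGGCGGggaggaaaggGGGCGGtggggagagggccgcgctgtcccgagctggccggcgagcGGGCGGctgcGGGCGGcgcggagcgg
LAMA5: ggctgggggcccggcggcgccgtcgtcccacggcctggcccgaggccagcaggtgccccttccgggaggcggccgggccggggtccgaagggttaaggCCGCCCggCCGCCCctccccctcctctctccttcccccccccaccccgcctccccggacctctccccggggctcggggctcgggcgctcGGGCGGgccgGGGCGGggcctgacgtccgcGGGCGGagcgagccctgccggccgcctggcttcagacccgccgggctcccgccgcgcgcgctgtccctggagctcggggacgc
LAMB3: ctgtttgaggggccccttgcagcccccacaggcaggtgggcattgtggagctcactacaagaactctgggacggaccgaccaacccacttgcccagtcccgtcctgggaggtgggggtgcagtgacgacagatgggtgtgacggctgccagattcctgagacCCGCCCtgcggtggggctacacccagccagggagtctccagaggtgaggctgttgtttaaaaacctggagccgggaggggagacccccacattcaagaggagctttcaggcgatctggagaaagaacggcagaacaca
COL17A1: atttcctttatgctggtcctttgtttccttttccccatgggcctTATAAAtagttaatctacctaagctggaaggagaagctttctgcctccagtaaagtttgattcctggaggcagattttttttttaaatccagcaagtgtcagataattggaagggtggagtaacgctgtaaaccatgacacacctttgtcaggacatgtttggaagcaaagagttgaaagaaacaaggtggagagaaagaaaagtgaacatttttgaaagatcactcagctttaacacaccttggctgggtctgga

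The HSPG2 window has 83.3% GC and 10 GC boxes, and the LAMA5 window 82.7% GC and 5 GC boxes, against a median GC of 58.7% over 35116 RefSeq windows of the same length. Each is richer in GC than 99.1% or more of these windows. The LAMC1 window (79.0% GC, 3 GC boxes) and the LAMB1 window (71.0% GC, 4 GC boxes) also lay above the median, and the LAMB2 window (58.7% GC, 1 GC box) lay at it. Genes that were not called lower also had windows above the median, namely LAMA3 (61.7% GC, 1 GC box) and LAMB3 in the printed window (61.3% GC, 1 GC box) and in 1 of its others (60.7%), whereas its remaining window had 53.7% GC. The COL17A1 window has 40.7% GC, no GC box and 1 TATA box. GGGCGG is found in 45.0% of all windows, TATAAA in 11.5% and the AP-1 letters TGANTCA in 7.71%. The AP-1 letters had 2 matches in the LAMA3 window, which lies at the start of its little-expressed short form, and 1 in the LAMB3 window at the start of the minor transcript NM_001017402. They had 0 in the printed LAMB3 window and 0 in the other 7 windows. The E-box letters CACGTG (7.26% of all windows) and the TEAD letters GGAATG (14.03%) were in none of the 10. A match of letters is a description and was not tested for binding.

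LAMA5 encodes the alpha chain that carries the receptor-binding domains of its laminins (chromosome 20, 62309065 to 62367312, GRCh38). It was listed at 24.9, 25.9 and 23.5 FPKM in scramble libraries, at 16.4, 16.5 and 16.2 FPKM with shRNA FZD6 #1 and at 17.2, 18.2 and 15.8 FPKM with shRNA FZD6 #2. Every knockdown library lay below every scramble library, and the highest of them, shRNA FZD6 #2 replicate 2, was still well short of the lowest scramble library. The log2 fold change was −0.54 (SE 0.0479, adjusted p = 0.000766). LAMA5 ranked 195 from the lowest among the 12547 tested genes.

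LAMB2 and LAMB1 encode the beta chains that can join LAMA5. LAMB2 (chromosome 3, 49121114 to 49133050) was listed at 31.8, 32.9 and 31.3 FPKM in scramble libraries, at 23.7, 23.3 and 23.7 FPKM with shRNA FZD6 #1 and at 24.8, 24.9 and 23.1 FPKM with shRNA FZD6 #2. Its log2 fold change in knockdown was −0.40 (SE 0.0325, adjusted p = 0.000468). LAMB1 (chromosome 7, 107923799 to 108003161) was listed at 9.37, 9.61 and 9.66 FPKM in scramble libraries, at 6.90, 7.27 and 7.13 FPKM with shRNA FZD6 #1 and at 7.59, 8.12 and 7.43 FPKM with shRNA FZD6 #2. Knockdown and scramble libraries did not overlap in either gene, whereas the hairpins overlapped each other in LAMB2 (log2 fold change of LAMB1 −0.33, SE 0.0437, adjusted p = 0.00296). The ratio of the 2 beta chains to each other overlapped between the groups, with LAMB1 at 0.292 to 0.309 of the LAMB2 level in scramble libraries and 0.291 to 0.326 in knockdown libraries.

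LAMC1, the gamma chain shared by most laminins (chromosome 1, 183023420 to 183145592), fell least of the 6. It was listed at 38.7, 40.0 and 37.9 FPKM in scramble libraries, at 30.8, 31.5 and 30.9 FPKM with shRNA FZD6 #1 and at 34.1, 35.6 and 31.5 FPKM with shRNA FZD6 #2. The shRNA FZD6 #2 libraries were spread more widely than the others and came closest to the scramble libraries, without reaching them. The log2 fold change was −0.26 (SE 0.0507, adjusted p = 0.0109). The call was lost without scramble replicate 2, at −0.24 and an adjusted p of 0.0553.

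The proteoglycan genes fell with the LAMA5-type chains. HSPG2 (chromosome 1, 21822244 to 21937310) was listed at 6.79, 7.19 and 6.64 FPKM in scramble libraries, at 3.49, 3.46 and 3.42 FPKM with shRNA FZD6 #1 and at 3.56, 3.85 and 3.31 FPKM with shRNA FZD6 #2. All knockdown libraries were close to one another and far below the scramble libraries (log2 fold change −0.80, SE 0.0401, adjusted p = 0.000138). Cufflinks marked the HSPG2 estimate as failed in scramble replicate 1 and in shRNA FZD6 #2 replicates 1 and 3. The values listed there lie close to those of the other libraries of their group, but above their own Cufflinks bounds. In scramble replicate 1 the main transcript was listed at 6.43 FPKM with bounds of 0 to 0.349 FPKM. With the failed values set missing the log2 fold change in knockdown was −0.80 (limma, adjusted p = 0.00177). Of shRNA FZD6 #2 only replicate 2 is then left. The HSPG2 values per hairpin and per transcript use the listed ones.

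AGRN (chromosome 1, 1020120 to 1056116) was listed at 58.0, 58.8 and 56.5 FPKM in scramble libraries, at 45.4, 44.9 and 45.1 FPKM with shRNA FZD6 #1 and at 49.1, 47.2 and 46.7 FPKM with shRNA FZD6 #2. The 3 groups formed separate ranges, with shRNA FZD6 #1 lowest. The log2 fold change was −0.31 (SE 0.0337, adjusted p = 0.00176). In bulk RNA, fewer cells that express a gene and less of its RNA per cell cannot be told apart.

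Counted over the 9 genes, every knockdown library lay below every scramble library in 6, against 9.56% of all tested genes. The reverse, every knockdown library above every scramble library, held for LAMB3 alone, against 16.4% of all tested genes.

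LAMB3 and LAMA3 did not pass the test. LAMB3 (chromosome 1, 209614870 to 209652425) was listed at 125, 125 and 122 FPKM in scramble libraries, at 128, 129 and 130 FPKM with shRNA FZD6 #1 and at 132, 134 and 128 FPKM with shRNA FZD6 #2. The knockdown libraries lay close above the scramble libraries, and the hairpins overlapped each other. The difference missed the threshold (log2 fold change 0.07, 95% interval 0.01 to 0.13, adjusted p = 0.0787). It passed where no filter on low values was used (adjusted p = 0.0417), and under quantile normalization it was 0.02. LAMA3 (chromosome 18, 23689453 to 23955066), a sum in which the laminin-332 form had a mean share of 8.98% in scramble libraries, was listed at 11.02, 11.8 and 11.7 FPKM in scramble libraries, at 10.4, 10.4 and 10.3 FPKM with shRNA FZD6 #1 and at 11.2, 9.73 and 10.4 FPKM with shRNA FZD6 #2. Of its 6 knockdown libraries 5 lay below the lowest scramble library, and shRNA FZD6 #2 replicate 1 lay among the scramble libraries. Its log2 fold change of −0.13 (95% interval −0.22 to −0.04) had an adjusted p of 0.0510, and without shRNA FZD6 #2 replicate 1 it was −0.15 with an adjusted p of 0.0226. With protein-coding transcripts only, the LAMA3 value was −0.19 in knockdown and −0.29 with shRNA FZD6 #1, the lowest of all settings. The difference between the hairpins was then 0.20, the largest of all settings, and none of these passed.

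The ratio of LAMB2 to LAMB3, both beta chains, had a range of 0.254 to 0.263 in scramble libraries and 0.180 to 0.188 in knockdown libraries. That of LAMA5 to LAMA3, both genes of alpha chains, had a range of 2.00 to 2.26 in scramble libraries and 1.52 to 1.87 in knockdown libraries. The LAMA3 sum includes a non-coding transcript, with a mean share of 39.2% in scramble and 42.1% in knockdown libraries. This ratio is therefore not one of coding RNA. With the coding transcripts of LAMA3 alone, the ranges of the ratio in scramble and knockdown libraries overlap. In shRNA FZD6 #1 replicate 1 the non-coding transcript was at its highest, 6.12 FPKM. The main long coding transcript was at its lowest there, 2.98 FPKM.

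COL17A1, the transmembrane collagen (chromosome 10, 104031286 to 104085880), was listed at 1.07, 1.19 and 1.00 FPKM in scramble libraries and at 1.05 to 1.11 FPKM in all 6 knockdown libraries. The knockdown libraries lay within the scramble range. The log2 fold change was 0.00 with a 95% interval of −0.07 to 0.07 (adjusted p = 0.952), on a scale where the added 1 FPKM shrinks changes of genes near 1 FPKM. The Cufflinks bounds of its estimates reach 12.8% to 14.3% to either side of the value, against 1.76% to 2.12% for LAMC1.

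**Figure D2:**
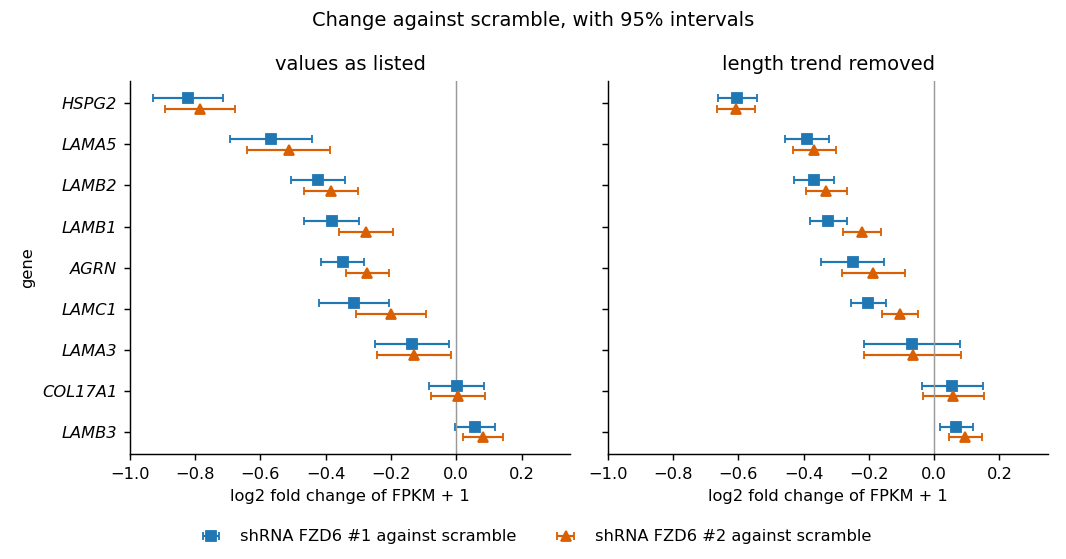
Log2 fold change of FPKM + 1 against scramble for the 9 genes, with 95% intervals, for shRNA FZD6 #1 and shRNA FZD6 #2, as listed (left) and after a trend in transcript length was removed from each library (right). HSPG2 stays lowest in both panels, at about −0.80 and −0.61, and the intervals of 6 genes lie below 0 in both.

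The hairpins were also compared with each other directly. Both hairpin comparisons share the scramble libraries, and the values per hairpin are therefore given side by side. HSPG2 changed by −0.82 with shRNA FZD6 #1 and −0.79 with shRNA FZD6 #2, LAMA5 by −0.57 and −0.51, LAMB2 by −0.42 and −0.38, LAMB1 by −0.38 and −0.28, AGRN by −0.35 and −0.27, and LAMC1 by −0.31 and −0.20. FZD6 itself was lower with shRNA FZD6 #2 than with shRNA FZD6 #1 (difference −0.25, adjusted p = 0.0273). None of the 9 genes passed the test between the hairpins, where 6.74% of all tested genes did in either direction. The differences nearest to it were those of LAMB1 (0.11, 95% interval 0.02 to 0.19, adjusted p = 0.134), AGRN (0.08, 95% interval 0.01 to 0.14, adjusted p = 0.165) and LAMC1 (0.11, 95% interval 0.01 to 0.22, adjusted p = 0.195), each less low with shRNA FZD6 #2. For HSPG2 the difference was 0.04 with a 95% interval of −0.07 to 0.14.

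Transcript length moved with these changes. Across the tested genes the log2 fold change fell with the length of the transcript (Spearman's rho = −0.441 across genes, which share libraries and are not independent replicates). The median was 0.09 for genes under 2000 bases, −0.03 for those of 4000 to 6000 bases, −0.08 for those of 6000 to 8000 bases and −0.14 for the 544 genes of 8000 bases or more. Of these classes 1.12%, 13.7%, 22.4% and 32.9% were called lower. The genes described here are long. HSPG2 has 14327 bases, a length that 50 tested genes reach with a median change of −0.29, and LAMA5 has 11426 bases. LAMC1 has 7889, AGRN 7323, LAMA3 6088, LAMB1 5725, LAMB2 5674 and COL17A1 5610 bases, and LAMB3 at 4081 bases is the shortest. The LAMA3 length is a mean weighted by FPKM over transcripts as unlike as 10661 and 1815 bases. Its value with the length trend removed rests on that mean.

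HSPG2 and LAMA5 lay below the 5th percentile of the genes of 8000 bases or more, which was −0.44, and HSPG2 also lay below the first percentile, at −0.58. LAMB2 and LAMB1 lay below the first percentile of the genes of 4000 to 6000 bases, −0.314. AGRN, at −0.310, lay below the 5th percentile of those of 6000 to 8000 bases, −0.295, and LAMC1, at −0.257, did not.

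After a lowess trend in length was removed from each library, 6 of the 9 genes were again called lower, against 5.68% of the 12332 genes with a length. These were the 6 named above, at −0.61 for HSPG2 (adjusted p = 1.55e-05), −0.38 for LAMA5 (adjusted p = 0.00034), −0.35 for LAMB2 (adjusted p = 0.000423), −0.27 for LAMB1 (adjusted p = 0.00492), −0.22 for AGRN (adjusted p = 0.0127) and −0.15 for LAMC1 (adjusted p = 0.029). LAMA3 was at −0.07 (adjusted p = 0.438). LAMB3 was called higher at 0.08 (adjusted p = 0.0453), where 6.58% of genes were, and lost the call with the replicate block as well (adjusted p = 0.0808). Between the hairpins, LAMB1 and LAMC1 were then called at 0.10 each (adjusted p = 0.0407 and 0.0415), against 9.97% of genes, so 2 of the 9 passed where none did without the correction. Both calls were lost with the replicate block as well (adjusted p = 0.0606 for LAMB1 and 0.0624 for LAMC1).

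**Figure D3:**
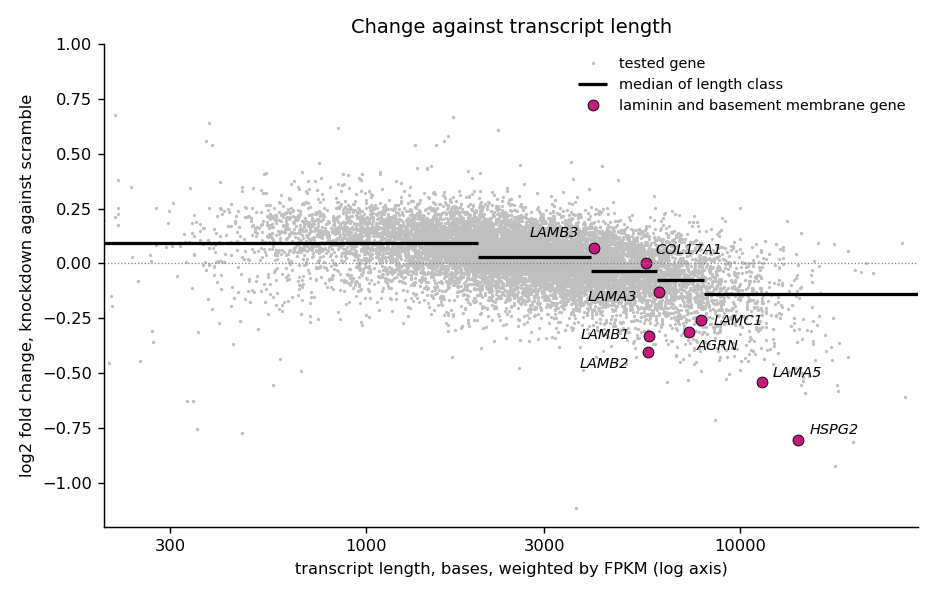
Log2 fold change in knockdown of the tested genes (grey) against transcript length (log axis), with black bars at the median of each length class and the 9 genes in colour. The medians step down from 0.09 to −0.14 with length, and HSPG2 and LAMA5 lie lowest of the 9. Of 12332 genes, 443 fall outside the axes.

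The libraries differed in this trend. The median deviation of the 544 long genes from the scramble mean was −0.02 to 0.05 in scramble libraries, −0.14 to −0.17 with shRNA FZD6 #1, and −0.13, −0.01 and −0.21 in shRNA FZD6 #2 replicates 1, 2 and 3. In replicate 2, where the long genes lay almost at the scramble level, HSPG2 deviated by −0.70, LAMA5 by −0.42, LAMB2 by −0.35, AGRN by −0.29, LAMB1 by −0.21 and LAMC1 by −0.12. That library was the highest of the 6 knockdown libraries in 6 of the 9 genes.

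**Figure D4:**
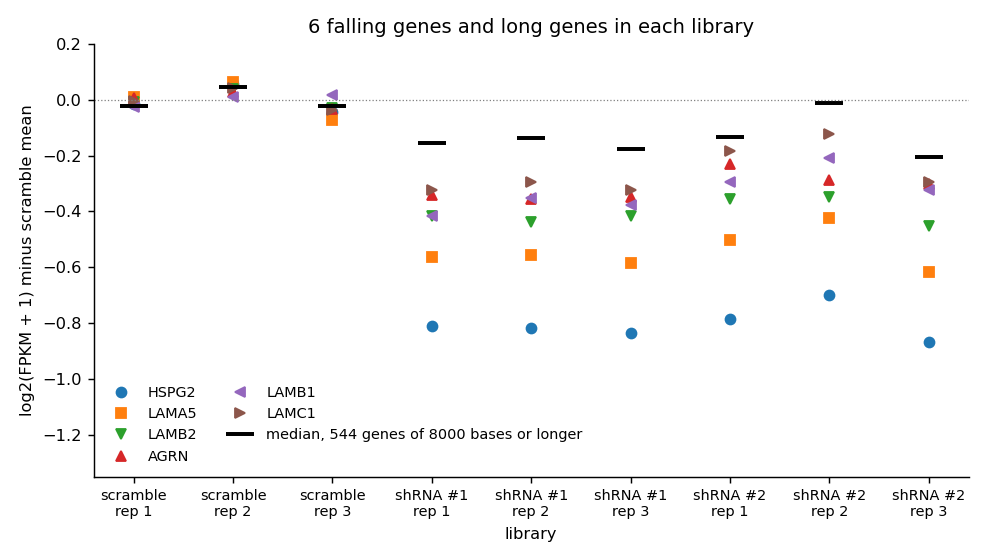
Deviation of log2(FPKM + 1) from the scramble mean in each of the 9 libraries for the 6 genes that fell (coloured symbols) and the median of 544 tested genes of 8000 bases or more (black bars). The bar is at −0.01 in shRNA FZD6 #2 replicate 2, where HSPG2 is at −0.70 and LAMC1 at −0.12.

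The RefSeq transcripts were fitted one by one as well. Of 19780 tested transcripts 0.586% were called lower, and those of LAMA5 (−0.54, adjusted p = 0.00862), LAMB2 (−0.40, adjusted p = 0.0087), AGRN (−0.31, adjusted p = 0.032), LAMB1 (−0.33, adjusted p = 0.0389) and the main HSPG2 transcript (−0.57, adjusted p = 0.0498) were among them. LAMC1, which has a single listed transcript with the same values as its gene, was at −0.26 with an adjusted p of 0.0689 in this larger table. AGRN was measured almost wholly through NM_198576, which held 99.5% or more of its FPKM, and LAMB3 mostly through NM_000228, with 88.2% to 91.0%.

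LAMA3 has a long form that starts far upstream and a short form that starts inside the gene and is the partner in laminin-332. No transcript of LAMA3 passed, and differences between its transcripts were not tested. The long coding transcript NM_198129 (10661 bases) was listed at 5.40, 5.91 and 4.68 FPKM in scramble libraries, at 2.98, 3.65 and 3.61 FPKM with shRNA FZD6 #1 and at 3.52, 4.90 and 3.21 FPKM with shRNA FZD6 #2. Its knockdown values mostly lay below the scramble values, with shRNA FZD6 #2 replicate 2 above the lowest of them (log2 fold change −0.45, SE 0.123, adjusted p = 0.104). The non-coding NR_130106 (1815 bases) was listed at 3.74 to 5.39 FPKM in scramble libraries and at 3.37 to 6.12 FPKM in knockdown libraries, which overlap throughout (−0.04, adjusted p = 0.921). NM_001302996, which ends well inside the gene, had a mean of 0.610 FPKM in scramble and 1.41 FPKM in knockdown libraries (0.55, adjusted p = 0.529). The mean shares of the gene's FPKM in scramble libraries were 46.4% for NM_198129, 39.2% for NR_130106 and 8.98% for the short NM_000227, so the LAMA3 value is mostly not that of the laminin-332 chain. The short coding NM_000227 was listed at 0.716 to 1.67 FPKM in scramble libraries and from nearly 0 to 1.44 FPKM in knockdown libraries, with a mean under 1 FPKM, and was not tested. How Cufflinks divides fragments among overlapping transcripts is uncertain, so the sum is firmer than its parts. The transcripts of HSPG2 were divided unevenly as well: NM_001291860 had a mean of 1.34 FPKM in scramble and 0.133 FPKM in knockdown libraries and was not tested, against 5.54 and 3.38 FPKM for NM_005529.

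Genes that overlap these loci were listed at low levels, apart from the microRNA gene MIR4260. MIR4260 was listed at 103 FPKM in scramble replicate 1 and at 0 in every other library. LAMA5-AS1, on the opposite strand of LAMA5, was listed at no more than 0.443 FPKM in any library, LAMC1-AS1 at no more than 0.269 FPKM and LDLRAD2, next to the end of HSPG2, at no more than 0.214 FPKM. The libraries were stranded, but the strand setting of the quantification is not given in the sources used here.

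Other genes of basement membranes were read from lists. Of 5 other laminin chains read here 2 were tested and both were called lower: LAMA1 (−0.27, adjusted p = 0.00986), an alpha chain of embryonic basement membranes, and LAMC3 (−0.14, adjusted p = 0.0403), a gamma chain. Among all tested genes 7.2% were called lower, and 32.9% and 22.4% in the length classes of LAMA1 (9657 bases) and LAMC3 (6133 bases). Of 25 further basement membrane components 7 were tested, 4 were called lower and none higher, with a median of −0.26, against 7.2% lower and 13.5% higher among all tested genes. These were NID1, the nidogen that links laminin to collagen IV (−0.37, adjusted p = 0.0345), the collagen IV chains COL4A1 (−0.29, adjusted p = 0.00475) and COL4A2 (−0.28, adjusted p = 0.00148), and NTN1, a secreted laminin-related guidance cue (−0.26, adjusted p = 0.00317). COL4A2 was the most abundant of them, at 14.6 to 15.0 FPKM in scramble libraries and 11.6 to 12.5 FPKM in knockdown libraries. After removal of the length trend, NID1 (−0.31, adjusted p = 0.0911) and LAMC3 (−0.08, adjusted p = 0.309) no longer passed, whereas LAMA1 did at −0.14 (adjusted p = 0.0207), COL4A1 at −0.22, COL4A2 at −0.20 and NTN1 at −0.19.

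Of 17 laminin receptor and hemidesmosome genes 13 were tested, 5 were called lower and 1 higher, with a median of −0.09, against 7.2% lower and 13.5% higher among all tested genes. PLEC, the plectin that ties hemidesmosomes to keratin, went from 56.3 to 60.8 FPKM in scramble libraries to 37.3 to 43.6 FPKM in knockdown libraries (−0.53, adjusted p = 0.00184). DST, a plakin gene with a form in the same plaque, fell by 0.40 (adjusted p = 0.0444), with shRNA FZD6 #2 replicate 2 overlapping the scramble range. Its value is a sum over its transcripts, which were not read apart here. The integrin genes ITGB4 (−0.25, adjusted p = 0.00323), whose product binds laminin-332, and ITGA2 (−0.25, adjusted p = 0.0477), and dystroglycan, DAG1 (−0.22, adjusted p = 0.0114), fell as well. RPSA, which encodes a ribosomal protein also described as a laminin receptor, was higher (0.20, adjusted p = 0.00513). After removal of the length trend PLEC was at −0.33 (adjusted p = 0.00496), ITGB4 at −0.20 (adjusted p = 0.0355) and RPSA at 0.10 (adjusted p = 0.0465), and all still passed. DST (−0.17), ITGA2 (−0.14) and DAG1 (−0.17) then did not.

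Of 23 processing and turnover genes 17 were tested, 2 were called lower and 1 higher, with a median of −0.03, against 7.2% lower and 13.5% higher among all tested genes. BMP1, a protease that cleaves laminin-332 chains and procollagens, was lower (−0.16, adjusted p = 0.0286), as was the metalloproteinase inhibitor TIMP2 (−0.20, adjusted p = 0.00543), whereas TIMP1, another such inhibitor, was higher (0.17, adjusted p = 0.0428). After removal of the length trend BMP1 (−0.17, adjusted p = 0.0408) and TIMP2 (−0.20, adjusted p = 0.0111) passed, and TIMP1 did not (0.05, adjusted p = 0.458). The enzymes that modify collagen in the secretory pathway, such as PLOD1, PLOD2, PLOD3 and P4HB, did not pass the test. Of the 17 tested genes, 2 were called lower with shRNA FZD6 #1, against 7.28% of all tested genes. With shRNA FZD6 #2 the list had 6 called lower and 1 higher, against 11.5% and 15.3%.

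**Figure D5:**
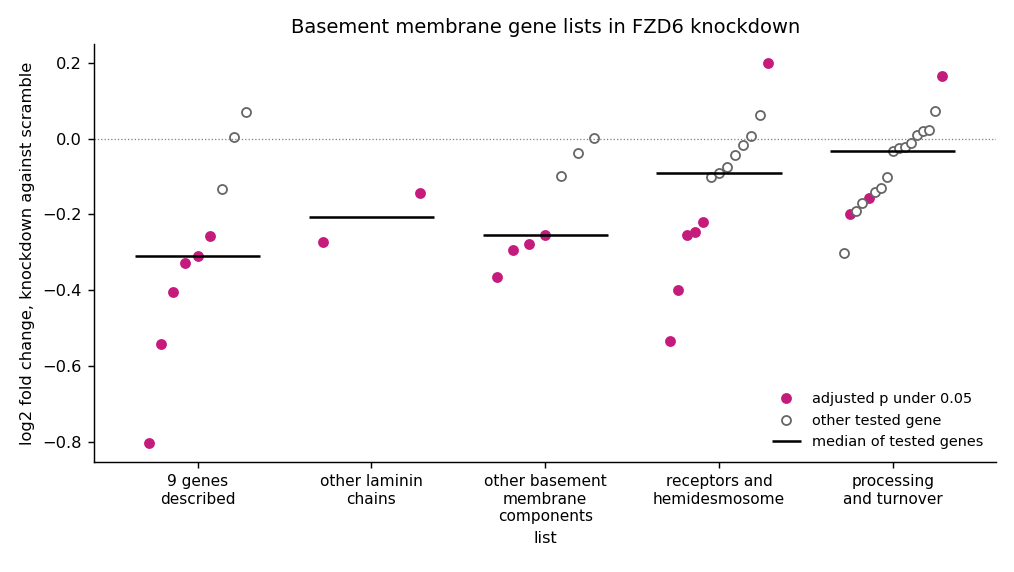
Log2 fold change in knockdown of the tested genes of each list, filled where the adjusted p is under 0.05, with bars at the list medians. The medians run from −0.31 for the 9 genes and −0.26 for other basement membrane components to −0.03 for processing genes.

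The leukocyte marker list held 1 tested gene, CD68, which was called higher. The summed level of 4 leukocyte markers was 18.1 to 19.2 FPKM in scramble libraries, 22.1 to 23.7 FPKM with shRNA FZD6 #1 and 26.0 to 26.8 FPKM with shRNA FZD6 #2. Nearly all of it was CD68, a lysosomal protein, with a mean of 17.4 FPKM in scramble and 23.7 FPKM in knockdown libraries (0.42, adjusted p = 0.00498). CD14 had a mean of 1.11 FPKM in scramble and 0.850 FPKM in knockdown libraries, with 5 of 6 knockdown libraries below the lowest scramble library, and was not tested. The defining markers PTPRC and CD3E were listed at 0 in every library.

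The genes most like the extremes of the 9 were found by the root-mean-square difference of log2(FPKM + 1), centred on the gene mean, over the 9 libraries. HSPG2 was most like DYNC1H1, a dynein heavy chain of 20003 bases (0.0557, log2 fold change −0.81), then FASN, the fatty acid synthase (0.107, −0.71), and AHNAK2 (0.121, −0.58). These too have long transcripts, of 8565 bases in FASN and 18254 in AHNAK2. LAMB3 was most like NSUN3 (0.0134), EXOSC10 (0.0152) and STC2 (0.0164), which changed by 0.07, 0.08 and 0.08 on the log2 scale.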

How the data were processed

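RNA-seq was performed on DU145 cells expressing scramble, shRNA FZD6 #1 or shRNA FZD6 #2, with 3 libraries each. The authors prepared stranded mRNA libraries, used STAR for mapping and Cufflinks for FPKM (versions not given in the sources used here), and the deposited tables list FPKM with 95% bounds for each RefSeq transcript. The labels name hg38, which the loci follow, whereas the methods name mm10. The tables hold 83497 entries each without read counts, which leaves count models out. FPKM already carry scaling for library size and length.

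Of 73240 accessions, 72645 were matched to 27902 genes through a RefSeq table (GRCh38.p14), the rest holding 0.387% to 0.431% of summed FPKM. FPKM were summed per gene, and those averaging 1 FPKM or more were tested as log2(FPKM + 1) by limma (version 3.58.1, R version 4.3.3). Adjusted p-values are Benjamini-Hochberg values over all tested genes, and 0.05 was the threshold. Fold changes are on that scale, which understates those of low genes. Knockdown (6 libraries) was set against scramble (3 libraries), and the hairpins were contrasts in a model with 3 groups. FZD6 was also tested by an exact permutation test. In 42 genes, HSPG2 among them, Cufflinks marked an entry as failed, and listed values were used. Transcript lengths were FPKM-weighted means over GENCODE v29, available for 98.3% of tested genes, and trends were fitted per library by lowess (span 0.3). The fit was tested on simulated data with planted changes. Python 3.11.15 with scipy 1.17.1, numpy 2.4.6, pandas 2.3.3 and matplotlib 3.10.9 served for the remaining steps. Replicate numbers did not pair the libraries.

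All 9 genes are named whatever their values, with FZD6, up to 8 called genes of each of 4 lists, and the 3 genes nearest in pattern to the largest rise and the largest fall. The genes and lists were chosen with earlier results of these data known. Alternatives were pseudocounts of 0.1 and 0.01, no filter or a filter of 5 FPKM, median centring, quantile normalization, removal of the length trend, protein-coding accessions or primary chromosomes only, the replicate number as a block, a variance trend, only the groups compared, and leaving out each library. Removal of a GC trend and other handling of failed entries were chosen after seeing the data. Some genes of the lists are not reported here, and the other experiments of the study were not analysed here.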

Additional observations from a re-analysis of the deposited data

Results flagged for a closer look

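FZD6 differed between the hairpins, by −0.25 on the log2 scale for shRNA FZD6 #2 against shRNA FZD6 #1 (limma, adjusted p = 0.0273), with all 3 libraries of shRNA FZD6 #2 below those of shRNA FZD6 #1. None of the 6 genes that fell in knockdown passed the test between the hairpins, where 6.74% of all tested genes did. With the length trend removed LAMB1 and LAMC1 passed (adjusted p = 0.0407 and 0.0415), against 9.97% of genes. Both calls were lost with the replicate block as well.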

How the results depend on the processing

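Over 24 settings the 6 genes called lower in knockdown gave 142 values, all below 0 (−0.97 to −0.15), and 140 kept the call. LAMC1 lost it with the replicate block together with removal of the length trend (−0.15, adjusted p = 0.0615) and without scramble replicate 2. With shRNA FZD6 #1 148 of 148 values kept the call, and with shRNA FZD6 #2 146 of 148, where LAMC1 lost it without scramble replicate 2 (adjusted p = 0.0599) and with only 2 groups compared (adjusted p = 0.0569). LAMA3 passed under 5 settings in knockdown, and its adjusted p ran from 0.0207 to 0.438. LAMB3 passed under 2 settings in knockdown (no filter, adjusted p = 0.0417, and length trend removed) and under 6 with shRNA FZD6 #2, among them no filter (adjusted p = 0.0341), a filter of 5 FPKM and a variance trend (adjusted p = 0.0375 each). The count of the 9 genes called in knockdown ran from 5 to 7. Where genes with a failed entry were left out it was 5, since HSPG2 is one of them. Leaving out libraries gave 5 to 7 in knockdown, 6 to 7 with shRNA FZD6 #1, 5 to 7 with shRNA FZD6 #2 and 0 to 0 between the hairpins, where removal of the length trend gave 2.

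The values near 0 changed sign, and the cause was not tested. For COL17A1 these were −0.00099 in knockdown and −0.0064 with shRNA FZD6 #1 under median centring, −0.0027 with shRNA FZD6 #1 under quantile normalization, and −0.0141 in knockdown, −0.0209 with shRNA FZD6 #1 and −0.0073 with shRNA FZD6 #2 with the GC trend removed. LAMB3 was at −0.0095 with shRNA FZD6 #1 under quantile normalization. Between the hairpins HSPG2 was at −0.0054 with the length trend removed, with or without the replicate block. Leaving out libraries gave COL17A1 −0.026 to 0.0383 in knockdown, −0.0284 to 0.0359 with shRNA FZD6 #1 and −0.0236 to 0.0407 with shRNA FZD6 #2, and between the hairpins HSPG2 −0.00683 to 0.0775, LAMA3 −0.0416 to 0.0522 and COL17A1 −0.0103 to 0.0133.

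The count over all genes was 2603 in knockdown (1512 with the length trend removed, 1106 with the replicate block as well, 932 to 3247 leaving out libraries), 2378 with shRNA FZD6 #1 (1512, 1330 and 909 to 3547), 3353 with shRNA FZD6 #2 (2142 with only 2 groups compared, 2068 to 4200) and 846 between the hairpins (348 with only 2 groups compared, 1436 with the GC trend removed, 326 to 1164). The lowest knockdown count was that without scramble replicate 2 and the highest that without shRNA FZD6 #2 replicate 2.

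The replicate numbers did not pair the libraries: of 9 pairs with the same number 1 had a correlation of deviations over 0.1, with a range of −0.0709 to 0.111 against −0.123 to 0.184 for other pairs. With the replicate block 2402 genes, and 6 of the 9, were called in knockdown. There were 3 libraries a group and no counts. Small differences such as those of LAMA3 and LAMB3 passed under some settings and not under others. Their adjusted p by limma in knockdown reached 0.438 and 0.802.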

Other observations

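Some genes of the lists differed between the hairpins, and they are named here after their values were seen. NID1 was lower with shRNA FZD6 #2, at 4.89 to 5.24 FPKM, than with shRNA FZD6 #1, at 6.40 to 6.61 FPKM (−0.33, adjusted p = 0.00187), and was called lower with each. LOXL2, a lysyl oxidase that acts on collagen IV, differed by −0.37 (adjusted p = 0.00137), the laminin-binding integrin gene ITGA3 by −0.14 (adjusted p = 0.0456) and the metalloproteinase gene MMP14 by −0.19 (adjusted p = 0.0209). LOXL2 too was called lower with each hairpin, at −0.12 with shRNA FZD6 #1 (adjusted p = 0.0475) and −0.48 with shRNA FZD6 #2 (adjusted p = 0.000348). ITGA3 and MMP14 were called lower with shRNA FZD6 #2 alone. Among the epithelial markers, CDH1 was lower in knockdown (−0.28, adjusted p = 0.0104), whereas EPCAM (0.26, adjusted p = 0.0172) and KRT19 (0.15, adjusted p = 0.00791) were higher, all by limma. With the length trend removed, CDH1 was still called (−0.26, adjusted p = 0.0243), and EPCAM (0.19, adjusted p = 0.0924) and KRT19 (0.06, adjusted p = 0.237) were not.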
